A study of Mus musculus with 12 samples.

Results

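The endothelin and renin-angiotensin genes described here are 10 genes, Edn1, Edn3, Ednra, Ednrb and Ece1 of the endothelin system and Agt, Ace, Agtr1a, Agtr1b and Agtr2 of the renin-angiotensin system. They were chosen by symbol from a table of raw counts with 25284 genes, and each of the 10 had a row. Of these, 9 had enough reads to be among the 15857 genes tested, and Agtr2 did not. Gene expression was measured by RNA sequencing of thoracic aorta from 12 male ApoE-/- mice on a C57BL/6 background, which lack apolipoprotein E, clear lipoproteins poorly and develop atherosclerosis. All mice were fed a high fat diet enriched in cholesterol and carried osmotic minipumps under the skin, replaced midway, for 8 weeks until 18 weeks of age. The pumps delivered vehicle (cyclodextrin in saline) to 6 controls, named C1 to C6 here, and AZ6983 at 50 µmol per kg per day to 6 treated mice, named A1 to A6. AZ6983 is an agonist of the alpha 7 nicotinic acetylcholine receptor, the product of Chrna7, and the study asked how its stimulation changes gene expression in the atherosclerotic aorta.

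Endothelins are short peptides cut from larger precursors, last by endothelin converting enzyme, and endothelin-1 from the endothelium is among the strongest constrictors of arteries. Angiotensinogen is cut by renin and then by angiotensin converting enzyme to angiotensin II, which constricts vessels and promotes inflammation and remodelling of the wall. Both peptides act on receptors coupled to G proteins, the ET-A and AT1 receptors of smooth muscle for constriction, and the ET-B receptor of endothelium for release of nitric oxide and clearance of endothelin.

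No member passed the threshold of 10% FDR between AZ6983 and control mice, and in every one the groups overlapped. The threshold was passed by 0% of all genes tested (edgeR's quasi-likelihood test with Benjamini-Hochberg adjustment), and 0.41% of all genes had groups that did not overlap. DESeq2 called 0.523% of the genes it tested, none of them a member. Ece1 and Ednrb had an unadjusted p under 0.05 and a higher mean with AZ6983, that is 2 of the 9 members tested, against 10.2% of all genes in either direction and 7.38% in the direction of a higher level with AZ6983. Of the 12 fits that left out 1 mouse, 4 kept both under 0.05, 6 kept 1 of them and 2 kept 0 (without C3 and without C5). It was also 0 with the fraction of reads outside genes as a covariate and without C3, C6 and A1. The number of all genes under 0.05 moved too, from 1616 of 15857 with all mice to 467 of 15857 with the covariate. It was 1088 of 15997 without C3, 1292 of 16018 without C5 and 1616 of 15989 without C3, C6 and A1. The fits that left out 1 mouse ran from 1046 of 16043 (without C1) to 2233 of 15998 (without A1). The members differed far more from each other in how they varied between mice: Ece1 differed by 1.38 times between its lowest and highest mouse, and Edn3 by 19.5 times. Agtr1a and Edn3 varied together with genes of sympathetic neurons, in both groups.

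The libraries held 25641329 to 29131708 counts on genes in the controls and 23810036 to 35864666 with AZ6983 (exact permutation test, two-sided, p = 0.859). The share of the table's reads on no gene was 10.1% ± 1.55 (SD, n = 6) in controls and 12.8% ± 1.36 (n = 6) with AZ6983 (exact permutation test, two-sided, p = 0.0108). Smooth muscle genes marked every sample as arterial wall, with Myh11 (smooth muscle myosin) at 4551 CPM (counts scaled by library size) or more in each mouse, and Ucp1 of brown fat was at 1228 CPM or more, so fat around the vessel was part of each sample. The library of A4 stood apart in Rag1, a gene of thymocytes, at 577 CPM against at most 21.3 CPM in the other mice. The score of neutrophil genes (mean log2 CPM) was 1.65 ± 0.566 in controls and 3.27 ± 0.824 with AZ6983 (SD, n = 6 each). That of cartilage genes was 4.47 ± 0.923 and 3.18 ± 0.615. In exact permutation tests, not adjusted over the scores, neutrophil genes had p = 0.00433 and cartilage genes p = 0.0303. The paper lists Ngp, Camp, Ltf and Csf3r of the neutrophil list and Col2a1 of the cartilage list as changed in these mice. These 2 p-values are therefore not independent of the choice of markers. Of 3 cartilage genes tested, 1 had an unadjusted p under 0.05 (edgeR). Scores of endothelium, smooth muscle, Schwann cells and fat had exact permutation p of 0.188 or more, which does not show like groups. Ucp1 was at 1834 to 3034 CPM in controls, 1228 to 1741 in A1, A2, A3, A4 and A6, and 3728 in A5. At an unadjusted p under 0.05 (edgeR), 1 of 9 endothelial and 1 of 7 white fat genes were higher with AZ6983. Lower were 1 each of 8 smooth muscle, 8 Schwann cell, 7 brown fat and 7 white fat genes, beside 10.2% of all genes in either direction. Apoe was at 8.05 CPM ± 2.55 in controls and 9.56 CPM with AZ6983. Counts per gene do not show whether these reads lie in the disrupted part of the gene, so they do not test the genotype. In bulk tissue, fewer cells of a type and less RNA per cell cannot be told apart.

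Per kilobase of exon, which allows levels to be compared between genes, the converting enzymes stood at the top. Ace was at 56.2 CPM per kb ± 7.70 (SD, n = 12 mice), above 96.0% of all genes tested. Ece1 followed at 35.9 ± 3.26 CPM per kb and Ednrb at 9.75 ± 1.38, and the ranges of these 3 genes did not overlap. Edn1 was at 7.41 ± 1.25 CPM per kb, and Ednrb exceeded it in 11 of 12 mice. Agtr1a (2.54 ± 1.88 CPM per kb), Ednra (1.74 ± 0.299), Agt (1.39 ± 0.720) and Agtr1b (1.09 ± 0.372) formed a middle group. Neighbours in that group overlapped, with the higher gene ahead of the next in 7 or 8 of 12 mice. Edn3 (0.313 ± 0.277 CPM per kb) and Agtr2 (0.0999 ± 0.0789) were lowest.

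**Figure D1:**
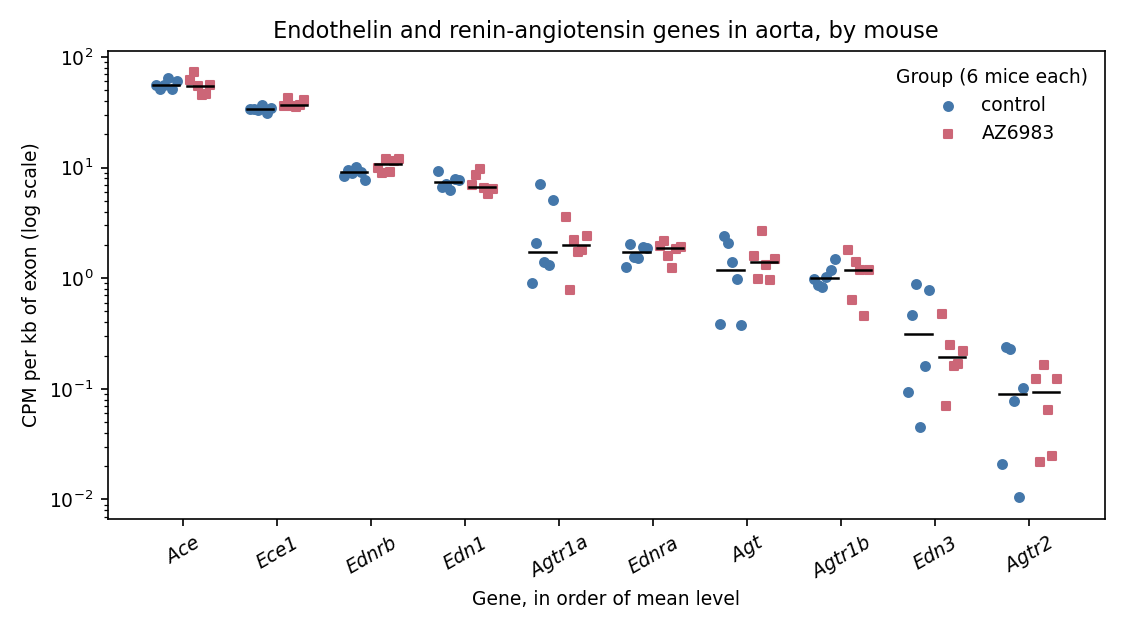
Level of each member in each mouse, in CPM per kb of exon on a log scale, with circles for the 6 control mice, squares for the 6 AZ6983 mice and lines at the group medians. Ace, Ece1 and Ednrb do not overlap with each other, and Agtr1a, Agt, Edn3 and Agtr2 spread most between mice of the same group.

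Edn1 (chr13:42301476-42307990, plus strand, GRCm38) encodes the precursor of endothelin-1. The lowest, median and highest of the 6 control mice were 13.5, 15.8 and 20.1 CPM, and those of the 6 AZ6983 mice 12.5, 14.4 and 20.8 CPM. The groups covered nearly the same range. The log2 fold change, AZ6983 against control, was -0.04 (SE 0.134, adjusted p = 0.928, edgeR). An antisense gene, Gm47118, shares 35 exonic bases with Edn1, and whether the counting used strand is not given in the sources used here.

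Edn3 (chr2:174760619-174784042, plus strand) encodes the precursor of endothelin-3, a ligand with preference for the ET-B receptor that is needed for enteric neurons and melanocytes during development. It was rare, with 5 to 105 reads per control and 8 to 53 per AZ6983 mouse. The controls were at 0.19 (C4), 0.38 (C1), 0.66 (C5), 1.90 (C2), 3.2 (C6) and 3.62 CPM (C3). With AZ6983 the values were 0.29 (A2), 0.67 (A4), 0.69 (A5), 0.89 (A6), 1.02 (A3) and 1.97 CPM (A1). The controls held both the highest values and the lowest one, and the AZ6983 mice lay within their range. In edgeR its log2 fold change was -0.85 (SE 0.649, adjusted p = 0.631, edgeR), and without C3 it was -0.46. Markers of melanocytes were near 0, with at most 12 reads for any of 5 genes in any mouse.

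Agt (chr8:124556534-124569706, minus strand) encodes angiotensinogen, which is made in liver and also in fat. Its lowest, median and highest values were 0.714, 2.26 and 4.55 CPM in controls and 1.84, 2.65 and 5.02 CPM with AZ6983. C1 and C6 lay below every AZ6983 mouse, and the other 4 controls lay among them. Between the groups its log2 fold change was 0.24 (SE 0.446, adjusted p = 0.866, edgeR). Agt had r = 0.379 with the score of white fat genes and r = 0.137 with that of brown fat genes over 12 mice, with adjusted permutation p of 0.5 and 0.759. Within the groups these were 0.574 and 0.626 in controls and -0.33 and -0.294 with AZ6983 (exact permutation p of 0.106 or more).

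Ece1 (chr4:137862237-137965229, plus strand) encodes the endothelin converting enzyme. The controls were at 164 (C5), 174 (C3), 180 (C2), 180 (C1), 182 (C6) and 193 CPM (C4). With AZ6983 the values were 188 (A4), 190 (A1), 191 (A3), 195 (A5), 217 (A6) and 226 CPM (A2). All AZ6983 mice lay above 5 of the 6 controls, and C4 was the one control within their range. The log2 fold change was 0.17 (SE 0.0622, unadjusted p = 0.0167, adjusted p = 0.450, edgeR), and DESeq2 gave an adjusted p of 0.319. Among the members Ece1 was the steadiest, since 9.43% of all genes tested had a smaller SD within groups. When the fraction of reads outside genes entered the fit as a covariate, the log2 fold change of Ece1 was 0.09 (unadjusted p = 0.335, edgeR).

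Ace (chr11:105967945-105989964, plus strand) encodes angiotensin converting enzyme, carried on the endothelial surface. The lowest, median and highest values were 271, 296 and 340 CPM in controls and 241, 290 and 386 CPM with AZ6983. The AZ6983 mice spread on both sides of the controls, with A4 and A5 below and A2 above all of them. In edgeR its log2 fold change was -0.01 (SE 0.112, adjusted p = 0.974, edgeR). Ace shares 295 exonic bases with the antisense gene Gm11651.

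**Figure D2:**
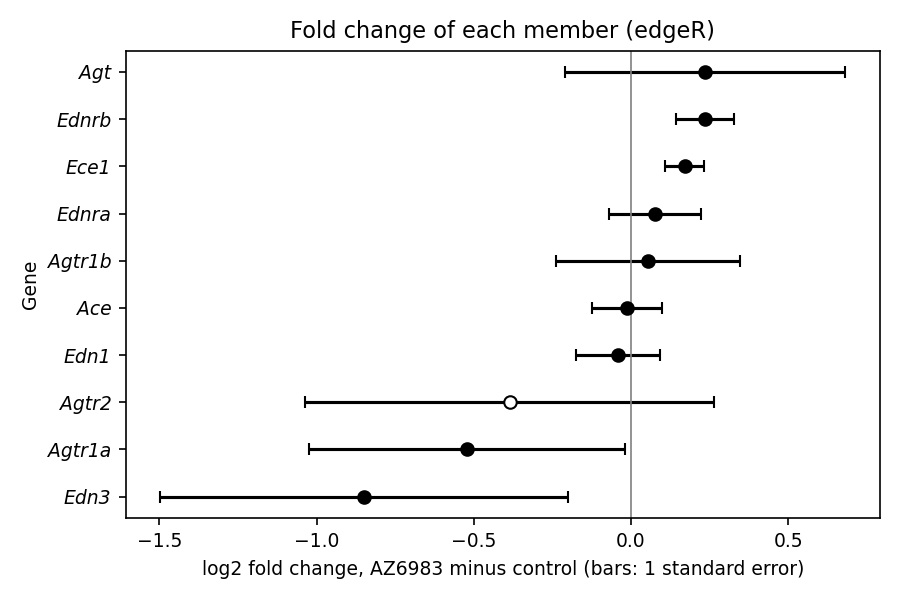
The log2 fold change of each member, AZ6983 minus control, with bars of 1 standard error from edgeR. Filled points are the 9 members tested and the open point is Agtr2, from a fit with no filter on low counts. Ece1 at 0.17 and Ednrb at 0.23 have the narrowest bars, and Edn3 at -0.85 has a bar of 0.649 on each side.

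Ednra (chr8:77663031-77724464, minus strand) encodes the ET-A receptor. Its lowest, median and highest values were 6.97, 9.36 and 11.1 CPM in controls and 6.78, 10.3 and 11.9 CPM with AZ6983. The ranges nearly coincided. Between the groups its log2 fold change was 0.08 (SE 0.146, adjusted p = 0.869, edgeR). The gene 4933431K23Rik on the other strand shares 91 exonic bases with Ednra.

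Ednrb (chr14:103814625-103844402, minus strand) encodes the ET-B receptor. The controls were at 33.2 (C6), 35.6 (C1), 38.2 (C3), 38.9 (C5), 40.1 (C2) and 43.4 CPM (C4). With AZ6983 the values were 37.7 (A2), 39.1 (A4), 42.3 (A1), 48.8 (A5), 50.9 (A6) and 51.1 CPM (A3). A3, A5 and A6 lay above every control, and C1 and C6 lay below every AZ6983 mouse. The log2 fold change was 0.23 (SE 0.0922, unadjusted p = 0.0248, adjusted p = 0.454, edgeR), and DESeq2 gave an adjusted p of 0.408. The unadjusted p of Ednrb was under 0.05 in 5 of the 12 fits without 1 mouse, and it was 0.103 with the fraction of reads outside genes as a covariate. The log2 ratio of Ednra to Ednrb was -2.05 ± 0.281 in controls and -2.21 ± 0.341 with AZ6983 (SD, n = 6 each, exact permutation test, two-sided, p = 0.392).

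Ednrb followed the score of 9 endothelial genes, the mean of their log2 CPM, over the 12 mice, with r = 0.775 (permutation p = 0.00306) and Spearman's correlation of 0.79 (permutation p = 0.00337). Adjusted over the 8 relations computed, these p-values were 0.0245 and 0.027. Without C6 and A5, the mice farthest from the median score, r was 0.626. Within the controls r was 0.725 (exact permutation p = 0.0903) and within the AZ6983 mice 0.72 (exact permutation p = 0.121). Leaving out 1 mouse gave r of 0.692 to 0.848, with an adjusted permutation p of 0.149 without C6 and 0.0796 without A5, so the call rests on these mice. In A5, the mouse with the highest score (6.42), the genes of the score did not move together. Its Pecam1 was the lowest of the 12 mice (373 CPM) and its Cdh5 the highest (160 CPM). The endothelial score was 6.22 ± 0.0700 in controls and 6.29 ± 0.0966 with AZ6983 (SD, n = 6 each, exact permutation p = 0.188), and its part in the higher mean of Ednrb was not tested. The other 7 relations had adjusted permutation p of 0.5 or more, among them Edn1 (r = -0.393) and Ace (r = -0.359) with endothelial genes and Ednra with smooth muscle genes (r = -0.285).

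**Figure D3:**
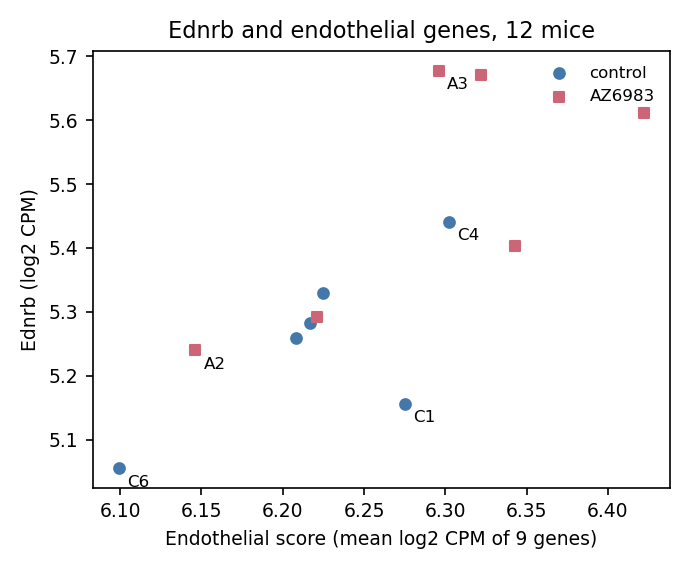
Ednrb in log2 CPM against the endothelial score, the mean log2 CPM of 9 endothelial genes, with circles for control and squares for AZ6983 mice. Mice with a higher score have more Ednrb (r = 0.775, n = 12), and C6 lies lowest on both axes.

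Rodents carry a pair of genes for the AT1 receptor, Agtr1a (chr13:30336441-30382867, plus strand) and Agtr1b (chr3:20314473-20367177, minus strand), and the reads of one could be taken for the other. Their coding sequences are each 1080 bases long and identical at 981 of them (90.8%). None of the 1006 windows of 75 bases, the read length, in the Agtr1a coding sequence occurs in Agtr1b. The longest identical run is 66 bases, and coding bases 75 to 170, which begin with that run, are shown to display how close the pair is, with the 4 differing bases in capitals:
Agtr1a: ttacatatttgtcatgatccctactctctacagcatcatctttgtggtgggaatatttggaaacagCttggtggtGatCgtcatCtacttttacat
Agtr1b: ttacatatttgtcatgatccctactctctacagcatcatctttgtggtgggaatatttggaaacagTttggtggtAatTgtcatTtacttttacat
Reads that carry an error at such a base may still be set aside or misplaced, so the split between the pair is uncertain.

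Agtr1a was at 2.51 (C1), 3.67 (C5), 3.87 (C4), 5.77 (C2), 14.3 (C6) and 19.9 CPM (C3) in controls. With AZ6983 it was at 2.16 (A2), 4.84 (A4), 5.03 (A5), 6.19 (A3), 6.71 (A6) and 9.91 CPM (A1). C3 and C6 lay above every AZ6983 mouse, and the other 4 controls lay among them. In edgeR its log2 fold change was -0.52 (SE 0.504, adjusted p = 0.708, edgeR). This value rested on few mice: without C3 it was -0.06, and without C3, C6 and A1 it was 0.33 (adjusted p = 0.720, edgeR). These were the mice with the most Agtr1a, and C3 and C6 were controls. Part of the rise therefore follows from the choice of mice.

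Agtr1b had 47 to 95 reads per control and 24 to 104 per AZ6983 mouse. Its lowest, median and highest values were 1.79, 2.16 and 3.23 CPM in controls and 0.981, 2.53 and 3.86 CPM with AZ6983, and A2 and A5 lay below every control. Between the groups its log2 fold change was 0.05 (SE 0.293, adjusted p = 0.961, edgeR). The log2 ratio of Agtr1a to Agtr1b was 1.45 ± 1.19 in controls and 1.27 ± 0.568 with AZ6983 (SD, n = 6 each, exact permutation test, two-sided, p = 0.758). Agtr1a exceeded Agtr1b in CPM in each of the 12 mice.

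Agtr2 (chrX:21484544-21489164, plus strand) encodes the AT2 receptor, abundant before birth and low in the adult artery. It had 1 to 22 reads per control and 2 to 14 per AZ6983 mouse. In a fit with no filter its log2 fold change was -0.39 (SE 0.650, adjusted p = 0.842, edgeR), so a difference was not detectable beyond the spread between mice.

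The members differed in which genes varied with them over the 12 mice, measured as Pearson's r of log2 CPM with each of 15856 other genes and given as a description with no test. The genes closest to Agtr1a were Chrnb4 (r = 0.98), a nicotinic receptor subunit of autonomic ganglia, and Syngr3 (r = 0.98), a protein of synaptic vesicles. Among those closest to Edn3 was Erc2 (r = 0.98), a protein of the presynaptic active zone. For Agtr1a 274 genes had r over 0.9 and for Edn3 209, against 0 to 12 for each of the other 7 members tested. The closest genes of those were Trafd1 and A330009N23Rik for Edn1 (r = 0.85 and 0.82), Hsd17b11 and Abi3bp for Ednra (0.91 and 0.90), and Tmem252 and Mir5125 for Ednrb (0.91 and 0.88). For the enzymes they were Usp36 and C4b with Ece1 (0.91 and 0.91) and Rnf103 and Dmwd with Ace (0.95 and 0.94). Agt was closest to Mmrn1 and Igfbp3 (0.86 and 0.84), and Agtr1b to Tmem87b and Cdh18 (0.91 and 0.91).

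A list of 11 genes of sympathetic neurons, among them Th and Dbh of noradrenaline synthesis, was written after these closest genes were seen, and 10 of its genes were tested. Th had 5, 403, 3806, 45, 121 and 1848 reads in C1 to C6, and 1348, 29, 395, 240, 86 and 262 reads in A1 to A6. The summed level of the list was 38.0 to 945 CPM in controls and 44.6 to 359 CPM with AZ6983. C3 was highest, then C6 and A1, as for Agtr1a and Edn3. In C1 Snap25 and Chrnb4 had 0 reads. The mean log2 CPM of the list was 2.78 ± 2.66 in controls and 2.65 ± 1.36 with AZ6983 (SD, n = 6 each, exact permutation p = 0.922). The difference in mean was smaller than the spread between mice of either group.

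Over the 12 mice Agtr1a had r = 0.958 with this score (Spearman's correlation 0.951), and 0.953 without C1 and C3, the mice farthest from its median. Within the groups r was 0.969 in controls and 0.959 with AZ6983. Edn3 had r = 0.923 (Spearman's correlation 0.965), 0.955 without C1 and C3, 0.916 in controls and 0.986 with AZ6983. Agtr2, at its low counts, had r = 0.748. The other members had r of -0.25 to 0.372. Agtr1b, the other AT1 receptor gene, had r = 0.367, but 0.662 without C1 and C3, 0.0459 within controls and 0.835 within AZ6983 mice. Agt had r = 0.372, and -0.111 without C1 and C3, 0.336 within controls and 0.654 within AZ6983 mice. The list was written after the pattern was seen on the same mice, and it holds Chrnb4, the gene closest to Agtr1a. These values therefore carry no test. The part of neuron RNA in the group means of Agtr1a and Edn3 was not tested. Without C3, C6 and A1, the log2 fold change of Edn3 was -0.13 (adjusted p = 0.948, edgeR), beside the 0.33 of Agtr1a. These mice were the highest in both genes, so part of each change follows from their choice.

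**Figure D4:**
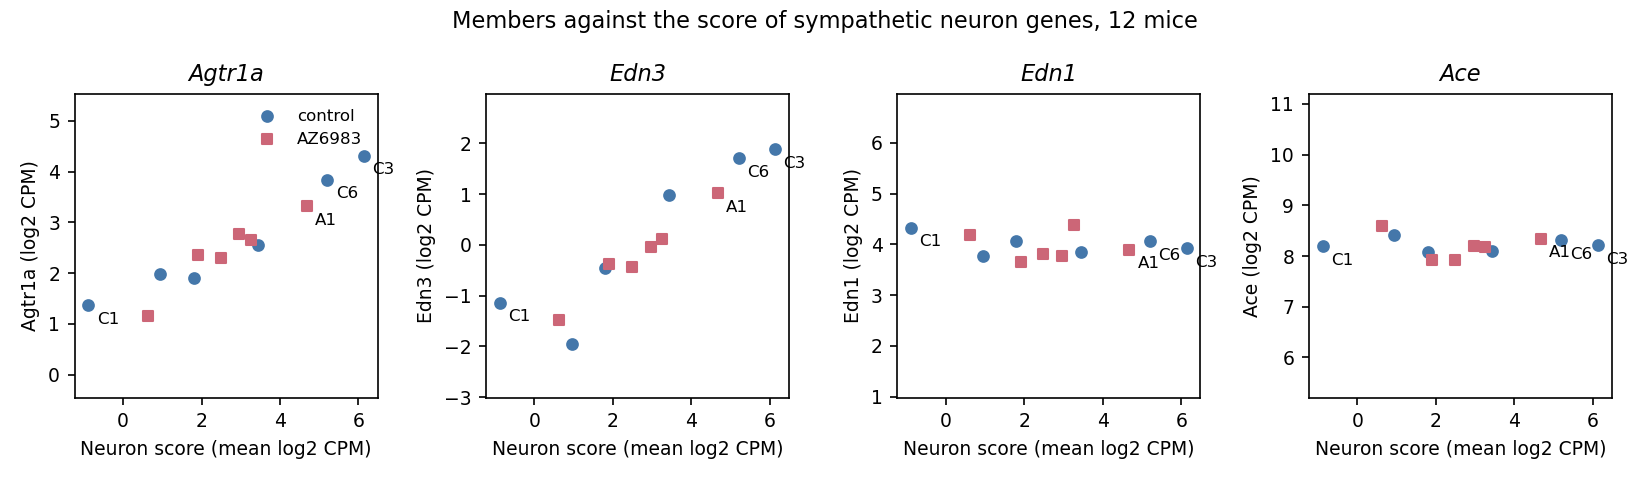
Agtr1a, Edn3, Edn1 and Ace in log2 CPM against the mean log2 CPM of 10 sympathetic neuron genes, with circles for control and squares for AZ6983 mice and the same span of 6 log2 units on each vertical axis. Agtr1a (r = 0.958) and Edn3 (r = 0.923) climb with the score in both groups, and Edn1 and Ace stay level.

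The genes around the members were read from 4 lists, and none of these genes passed 10% FDR (edgeR). Of 8 other endothelin genes, the precursor Edn2 and enzymes that activate or degrade the peptides, 7 were tested, and 0 had an unadjusted p under 0.05. Their median log2 fold change was 0.09, beside 0.05 for the members and 0.01 for all genes tested, from -0.38 for Ece2, a second converting enzyme, to 0.28 for Cma1, a mast cell chymase. Edn2 had at most 3 reads in a mouse. Of 20 other renin-angiotensin genes, 17 were tested, with a median of 0.04 and a span from -0.21 for Ctsd, a lysosomal protease, to 0.30 for Anpep, an aminopeptidase. Among these, 1 had an unadjusted p under 0.05, Enpep, whose product trims angiotensin II to angiotensin III. Enpep was at 38.5 CPM ± 3.89 in controls and 45.1 ± 3.07 with AZ6983 (SD, n = 6 each), with a log2 fold change of 0.23 (SE 0.0716, adjusted p = 0.447, edgeR). Ren1, which encodes renin, was low in both groups, at 2.33 CPM ± 0.993 and 2.68 ± 1.2.

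Downstream of the receptors, 34 genes of receptor signalling were tested, and 3 had an unadjusted p under 0.05, all with a higher mean with AZ6983. Arhgef1, a guanine nucleotide exchange factor, had a log2 fold change of 0.37, and Itpr3, a calcium channel of internal stores, 0.24. Adrbk1, a kinase that desensitizes receptors, had 0.20, and the adjusted p of the 3 genes was 0.447 to 0.487 (edgeR). The list's median was 0.06, from -0.12 for Rock2 to 0.50 for Prkcb. A4, whose library stood apart in Rag1, was the highest AZ6983 mouse for Arhgef1 (60.1 CPM), Itpr3 (30.4 CPM), Adrbk1 (74.7 CPM) and Prkcb, a protein kinase C (33.1 CPM against at most 10.3 in the other AZ6983 mice and 13.1 in controls). Without A4, Arhgef1 alone of this list kept an unadjusted p under 0.05, at a log2 fold change of 0.30 (adjusted p = 0.466, edgeR). The log2 fold changes of Itpr3, Adrbk1 and Prkcb were then 0.16, 0.14 and -0.03. Of 23 genes that angiotensin II or endothelin-1 is known to induce, 21 were tested, with a median of 0.09. In this list 1 had an unadjusted p under 0.05, Ccl2, a chemokine for monocytes, at a log2 fold change of -0.53 (adjusted p = 0.462, edgeR). The list ran from Spp1 (osteopontin) at -1.19 to Col1a1 (type I collagen) at 0.47, both with adjusted p over 0.5. Without A4, Ccl2 had a log2 fold change of -0.47 (unadjusted p = 0.0523) and Col1a1 of 0.61 (unadjusted p = 0.00856, adjusted p = 0.450). The shares of genes with an unadjusted p under 0.05 in these 4 lists, 0% to 8.82%, were below the 10.2% of all genes. Without A4 the 4 lists held 1, 2, 1 and 1 such genes, namely Pcsk5, Enpep with Anpep, Arhgef1 and Col1a1.

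**Figure D5:**
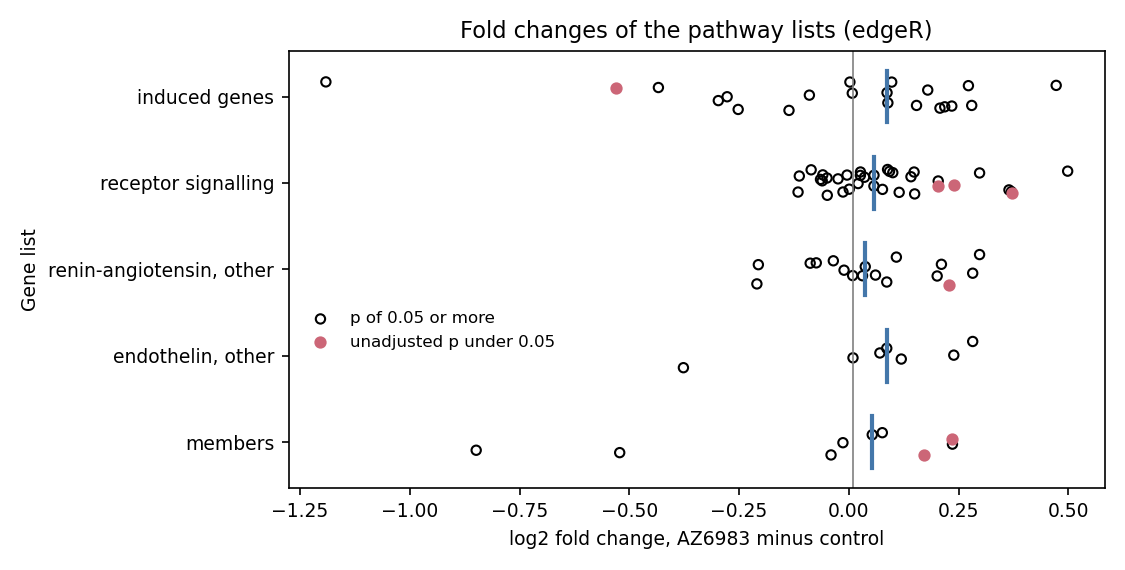
The log2 fold change, AZ6983 minus control, of each tested gene in the members and the 4 pathway lists, with filled points for an unadjusted p under 0.05, a blue line at each list's median and a grey line at the median of all genes. The medians lie between 0.04 and 0.09, and the filled points are Ece1, Ednrb, Enpep, Arhgef1, Itpr3, Adrbk1 and Ccl2.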

How the data were processed

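Total RNA from thoracic aorta was depleted of ribosomal RNA, made into stranded libraries and sequenced as read pairs (75 bases each end), and reads of high average quality were kept. The authors deposited raw counts per gene symbol. The submitters' processing notes name CASAVA 1.8.2, STAR 2.5.2b, HTSeq 0.6.1p1 and the build mm10 without their roles; the annotation and strand setting are not given in the sources used here. The 3 rows naming no gene (8.02% to 14.9% of reads on no gene, 18.1% to 23.2% not unique, 0.606% to 0.698% ambiguous) entered neither library sizes nor tests. Ribosomal depletion keeps unspliced RNA, which adds to the counts.

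Groups came from the labels. Mice were numbered in accession order, and nothing in the labels gives a batch, litter or pairing. Of the 12 columns, 11 match a mouse number in full; that of A1 holds 3 of its 4 digits, which no other number contains.

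The members and lists were chosen with earlier results of these data known. The test was edgeR 4.0.16 in R 4.3.3 by quasi-likelihood with TMM, filterByExpr and no covariate, adjusted by Benjamini-Hochberg over 15857 genes at 10% FDR. CPM used TMM library sizes, log2 CPM a prior count of 2, and a score is the mean log2 CPM of a list's tested genes. Single values were tested by exact permutation over 924 assignments, two-sided, with a smallest p of 0.00216, and relations by 100000 permutations. Alternatives were DESeq2 1.42.0 (the study's tool), limma-voom 3.58.1, RLE size factors, no filter, a mean of 50 counts, 5% FDR, a prior count of 0.5, the fraction of reads outside genes as covariate and each mouse left out. Leaving out C3, C6 and A1 together was added after seeing the data, and these mice were the highest in Agtr1a, Edn3 and the neuron score. Named genes were the members, the genes of each pathway list with an unadjusted p under 0.05 or the highest or lowest fold change, the 2 genes closest to each member, checks of the labels and markers; Edn2, Ren1 and the neuron genes were named after their values were seen. Some items are not reported here. Positions and exon lengths came from GENCODE M21 (GRCm38) by symbol, and 96.2% of tested genes had a length. Simulated counts in which 200 of 15857 genes differed by 1 on the log2 scale between 6 and 6 mice were used to check the steps: edgeR recovered 150 with 12 false calls, limma-voom 150 with 11 and DESeq2 158 with 57.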

Additional observations from a re-analysis of the deposited data

Results flagged for a closer look

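Each group of 6 mice was searched for a single mouse far from the rest by Dixon's test at the 95% level, in 38 groups of values, of which chance alone gives about 1.9. In 2 groups such a mouse was found, both in scores of fat genes and neither in a member. The 38 groups did not cover every score used here, so the number found does not speak for the scores left out. Scores of thymocyte, cartilage and mesothelial genes were not among those flagged, which does not show that they held no such mouse. For cartilage genes A2 was at 4.37 log2 CPM, against 2.65 to 3.22 in the other AZ6983 mice. For mesothelial genes A3 was at -0.535, against 1.36 to 2.22. In the score of thymocyte genes A4 stood at 6.27 log2 CPM, against -0.132 to 1.87 in the other 5 AZ6983 mice. C6 had the lowest score of brown fat genes among the controls, 7.308 log2 CPM, against 8.14 to 8.31 in the other 5. C2 had the highest score of white fat genes among the controls, 7.935 log2 CPM, against 7.20 to 7.47.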

How the results depend on the processing

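No member passed the threshold in any alternative run, with adjusted p of 0.293 to 0.9998 (edgeR, DESeq2 or limma-voom); a difference of the size seen in Edn3 or Agtr1a is within the spread of these mice. Genes past 10% FDR numbered 0 in the edgeR fit, 92 with DESeq2 on every gene, 0 to 27 with each mouse left out (27 without A5, 1 without C6 and 1 without A1) and 3 without C3, C6 and A1; the cause was not tested. With the fraction of reads outside genes as covariate the log2 fold changes of Edn1, Ednra and Agt were 0.041, -0.24 and -0.051, and those of Ece1, Agtr1b and Agtr1a 0.086, 0.40 and -0.22, against 0.17, 0.05 and -0.52 without it. With limma-voom those of Agtr1b, Edn3, Agtr1a and Agt were -0.049, -0.38, -0.26 and 0.50, and without C3, C6 and A1 those of Agtr1b and Agtr1a were -0.080 and 0.33. The r of Agtr1a with smooth muscle genes was 0.0405 and, with RLE size factors, -0.0030.

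Values whose sign turned when a mouse was left out were the log2 fold changes of Edn1 (-0.14 to 0.033), Ednra (-0.0035 to 0.16), Agt (-0.0068 to 0.49), Ace (-0.12 to 0.035) and Agtr1b (-0.14 to 0.19), and the difference in the log2 ratio of Agtr1a to Agtr1b (-0.43 to 0.21). The same held for r of Agtr1a with smooth muscle (-0.134 to 0.187), Ednrb with Schwann cell (-0.0198 to 0.30) and Agt with brown fat genes (-0.164 to 0.288). The r of Ednrb with endothelial genes ranged from 0.692 to 0.848. Edn3 could not be tested with a filter at a mean of 50 counts. Edn3, Agtr1b, Agt and Agtr2 had the fewest reads among the members, 1 to 128 per mouse, so counting error is largest there; how much of their spread it makes up was not tested. No paired analysis was possible because the mouse numbers in the labels are not shared between the groups.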

Other observations

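Chrna7, the gene of the receptor that AZ6983 stimulates, also varied with the sympathetic neuron score, with r = 0.784 over 12 mice (0.89 without C1 and C3, 0.863 within controls and 0.825 within AZ6983 mice), given as a description with no test. It had 27 to 114 reads per control and 19 to 76 per AZ6983 mouse, and the highest were in C6 (114 reads), C3 (111) and A1 (76), the mice with the most Th. Its mean was 2.21 CPM ± 1.31 in controls and 1.44 ± 0.779 with AZ6983 (SD, n = 6 each). The groups overlapped, and the log2 fold change was -0.62 (SE 0.417, adjusted p = 0.591, edgeR).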
